A study of Mus musculus with 40 samples.

Results

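The response of wild-type (WT) mouse embryonic stem cells (mESCs) to the ATR kinase inhibitor AZD6738 (ATRi) was examined in 16 of the 40 lane samples of the series, which are 4 of its 16 libraries. All samples labelled WT were taken, from both sequencing runs, and no measured value entered the choice. The WT libraries came from 2 biological replicates, WT_1 and WT_2, each treated for 4 h with DMSO, the solvent control, or with 900 nM AZD6738. Per the labels, each replicate or clone had 1 sample under each treatment, so the response was measured within each replicate, and no source used here says how the 2 WT cultures were related. The remaining 24 samples come from 3 Ccnc KO and 3 Cdk8 KO clones under the same 2 treatments, which lack a subunit of the Mediator kinase module, and they are used here only for comparison. All cells were grown on gelatin in medium with serum and leukaemia inhibitory factor. The study left out WT_2 under ATRi, so the response of each replicate is given separately beside the joint one.

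ATR is the kinase that senses single-stranded DNA at stalled replication forks. Through CHK1 it restrains origin firing and holds back entry into mitosis, and AZD6738 blocks its catalytic site. ATF4, to which many of the genes described here are linked, is a transcription factor whose translation rises when eIF2-alpha is phosphorylated, and it drives genes for amino acid uptake and synthesis, tRNA charging and redox balance.

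RNA was selected by poly(A) tail and read with the strand kept. Summed over lanes and runs, 95041512 (WT_1) and 70994442 (WT_2) reads were counted on genes under DMSO, and 90148555 and 70416781 under ATRi. All 10 mESC markers, among them Pou5f1, lay at 116 CPM or more in every WT library, with CPM a gene's count relative to its library's total. The summed marker levels and this minimum used plain totals, and all other CPM followed TMM scaling, edgeR's correction for composition. Of 8 feeder fibroblast markers none reached 5 CPM in all 4 libraries, 1 was at 0, and their summed level was 6.03 to 7.14 CPM. The summed levels in WT_1 and WT_2 under DMSO and then under ATRi were 87.1, 99.1, 93.2 and 92.1 CPM for primitive endoderm markers, 51.3, 48.2, 51.5 and 46.4 CPM for neuroectoderm, 3.49, 4.69, 4.81 and 7.19 CPM for mesoderm and 2.97, 3.62, 3.96 and 5.51 CPM for trophectoderm. The targeted genes were looked at to check the labels, with TMM taken over the WT and KO libraries together. Ccnc stood at 40.6 to 47.2 CPM in the WT libraries and at 4.26 to 7.47 CPM in the Ccnc KO libraries. Cdk8 stood at 58.3 CPM in WT_2 under ATRi and at 70.1 to 77.3 CPM in the other WT libraries, against 52.5 to 64.6 CPM in the Cdk8 KO libraries, so that WT_2 under ATRi overlapped the KO range. Of 27 genes that separated the other WT libraries from every KO library, WT_2 under ATRi lay on the WT side for 26. Mitochondrially encoded genes took 3.27% of its counts, against 1.12% to 1.49% in the other WT libraries and 1.19% to 2.16% in the KO libraries, and the 10 genes with most counts took 5.13%, against 3.81% to 4.05% and 3.67% to 4.44%.

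With replicate as a block, 21 of 18490 genes changed with ATRi in WT cells, 13 raised (0.0703% of the genes tested) and 8 lowered (0.0433%). A call needed a p-value under 0.05 in edgeR's quasi-likelihood test after Benjamini-Hochberg adjustment, which is the adjusted p given throughout. The lowered genes were Chac1, Trib3, Slc1a4, Pck2, Nupr1, Slc6a9, Adm2 and the pseudogene Gm7384. Of these, 6 are on a list of ATF4 targets and regulators, that is all but Pck2 and Gm7384. The raised genes were 2 histone genes, 3 genes of the mitochondrial chromosome and 8 pseudogenes. The fit had 1 residual degree of freedom, against 14.5 prior degrees of freedom that edgeR estimated across genes. The error of each gene thus came mostly from the spread shared across genes, and disagreement between its own replicates entered little. An unadjusted p-value under 0.05 was reached by 1672 genes. The 21 genes kept their direction in every setting tried, but their number moved with the setting. The setting that left out WT_2 under ATRi also had no replicate block and kept 1 treated library. It therefore cannot show how far the number rested on that library, and its calls are not counted. Without replicate 2 as a whole, in a fit that borrows its spread from the KO clones, 14 genes were called, 8 of them among the 21, and without replicate 1, 2500. Without the replicate block edgeR called none (661 at an unadjusted p under 0.05), and DESeq2 with the block called 26.

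Chac1 (ENSMUSG00000027313, chromosome 2 from 119351229 to 119354381, plus strand of GRCm38), which encodes an enzyme that degrades glutathione, fell from 16.6 to 3.61 CPM in replicate 1 and from 14.0 to 3.98 CPM in replicate 2 (log2 fold change -2.01, SE 0.19, adjusted p = 0.00027). Both treated libraries lay below both DMSO libraries, with a gap wider than the spread within either treatment. Of the lowered genes, 3 carry the 8 letters of the C/EBP-ATF response element in the 300 bases around their start, which extend from 250 bases before to 50 after the start in the RefSeq annotation of GRCm38.p6. They are shown because these are the only lowered genes with the element, which is TTGCATCA, or TGATGCAA on the other strand, printed in capitals and read 5′ to 3′ along the strand of the gene.

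Chac1, chr2:119350992-119351291, plus strand: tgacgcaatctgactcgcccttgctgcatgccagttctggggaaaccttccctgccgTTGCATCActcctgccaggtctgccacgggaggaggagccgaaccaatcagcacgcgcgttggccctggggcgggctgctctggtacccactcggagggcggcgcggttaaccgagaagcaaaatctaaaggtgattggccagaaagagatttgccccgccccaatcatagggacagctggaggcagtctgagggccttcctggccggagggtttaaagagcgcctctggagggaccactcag
Nupr1, chr7:126625421-126625720, minus strand: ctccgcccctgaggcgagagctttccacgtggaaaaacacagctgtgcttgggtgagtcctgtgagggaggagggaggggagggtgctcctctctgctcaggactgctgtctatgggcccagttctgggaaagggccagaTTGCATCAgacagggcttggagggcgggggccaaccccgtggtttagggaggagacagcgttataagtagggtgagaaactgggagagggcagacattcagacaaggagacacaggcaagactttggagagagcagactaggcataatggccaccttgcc
Slc1a4, chr11:20332664-20332963, minus strand: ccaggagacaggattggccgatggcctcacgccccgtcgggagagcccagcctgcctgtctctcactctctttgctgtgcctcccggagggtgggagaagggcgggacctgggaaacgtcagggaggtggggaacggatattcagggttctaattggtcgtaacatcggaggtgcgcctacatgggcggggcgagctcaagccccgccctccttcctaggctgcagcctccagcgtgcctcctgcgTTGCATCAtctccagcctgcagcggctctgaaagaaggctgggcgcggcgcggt

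The first base of the element lay 193 bases before the start in Chac1, 110 before it in Nupr1 and 4 before it in Slc1a4. The 7 lowered genes other than Gm7384 were all in the promoter table, and the promoters of Trib3, Pck2, Slc6a9 and Adm2 did not hold these letters in the window. The element was in 279 of all 27025 genes of the table (1.03%), in 76 of the 11583 genes tested that had an entry (0.656%) and in 9 of 37 matched members of the ATF4 list (24.3%). The cyclic AMP response element TGACGTCA, which is its own reverse complement, was in 549 of 27025 (2.03%), in 1 of the 37 and in none of the 7. A match in the letters is a description of the sequence and not a binding site.

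Trib3 (ENSMUSG00000032715, chromosome 2 from 152337422 to 152344032, minus strand) encodes a pseudokinase that restrains AKT and is a feedback regulator of ATF4. It fell from 62.2 to 28.7 CPM in replicate 1 and from 61.6 to 29.1 CPM in replicate 2 (log2 fold change -1.10, SE 0.13, adjusted p = 0.00369). Slc1a4 (ENSMUSG00000020142, chromosome 11 from 20302180 to 20332713, minus strand) encodes a transporter of small neutral amino acids and fell from 28.2 to 14.1 CPM in replicate 1 and from 25.4 to 13.8 CPM in replicate 2 (log2 fold change -0.94, SE 0.15, adjusted p = 0.0251). Pck2 (ENSMUSG00000040618, chromosome 14 from 55540266 to 55551242, plus strand), the mitochondrial phosphoenolpyruvate carboxykinase, fell from 33.0 to 20.4 CPM in replicate 1 and from 30.2 to 15.4 CPM in replicate 2 (log2 fold change -0.83, SE 0.14, adjusted p = 0.0379). In all 3 genes the treated libraries lay below the DMSO libraries of both replicates. Bulk RNA gives a mean over the culture, so fewer cells with a transcript and less transcript per cell cannot be told apart here or in any result that follows.

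The other lowered genes had a mean under 5 CPM, which the rule for named genes leaves out. They were chosen with their values known, as there are only 4. Nupr1, a small chromatin protein induced by stress, fell from 5.05 to 1.51 CPM in replicate 1 and from 3.75 to 1.61 CPM in replicate 2 (log2 fold change -1.49, SE 0.23, adjusted p = 0.0251). Slc6a9, the glycine transporter GLYT1, fell from 5.08 to 1.67 CPM in replicate 1 and from 4.55 to 1.99 CPM in replicate 2 (log2 fold change -1.40, SE 0.22, adjusted p = 0.0251). Adm2, which encodes a secreted peptide of the calcitonin family, fell from 1.06 to 0.237 CPM in replicate 1 and from 1.00 to 0.232 CPM in replicate 2 (log2 fold change -2.13, SE 0.36, adjusted p = 0.034). The treated libraries were again the lowest of the 4 for each of these genes. Gm7384 fell from 6.0 to 2.6 CPM in replicate 1 and from 2.82 to 0.594 CPM in replicate 2 (log2 fold change -1.65, SE 0.26, adjusted p = 0.0251), and WT_1 under ATRi and WT_2 under DMSO had similar levels, so that treatment moved it only within replicates. Its transcript matches Rpl11 at 95.3% identity, so its counts are uncertain.

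Where fewer than 12 genes passed in a direction, the rule for named genes adds those of smallest unadjusted p that moved the same way in both replicates, and these were not called. They are given with their log2 fold change and adjusted p, and were Stc2, a secreted glycoprotein (log2 fold change -0.99, SE 0.19, adjusted p = 0.0729), Slc16a3, the lactate exporter MCT4 (log2 fold change -0.65, adjusted p = 0.0873), Gpt2, the mitochondrial alanine transaminase (-0.60, 0.139), Cbr3 (-0.71, 0.179), Arhgap45 (-0.57, 0.207), the cationic amino acid transporter Slc7a1 (-0.53, 0.222), Htatip2 (-0.73, 0.226) and the mitochondrial folate enzyme Mthfd2 (-0.54, 0.245). Stc2 had 8.90 (DMSO) and 4.22 CPM (ATRi) in replicate 1 and 8.34 and 4.46 CPM in replicate 2. Mthfd2 had 154 (DMSO) and 117 CPM (ATRi) in replicate 1 and 128 and 79.4 CPM in replicate 2. In each of the 8 genes both treated libraries were below the DMSO library of their own replicate, which the rule required and which is therefore no separate evidence.

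**Figure D1:**
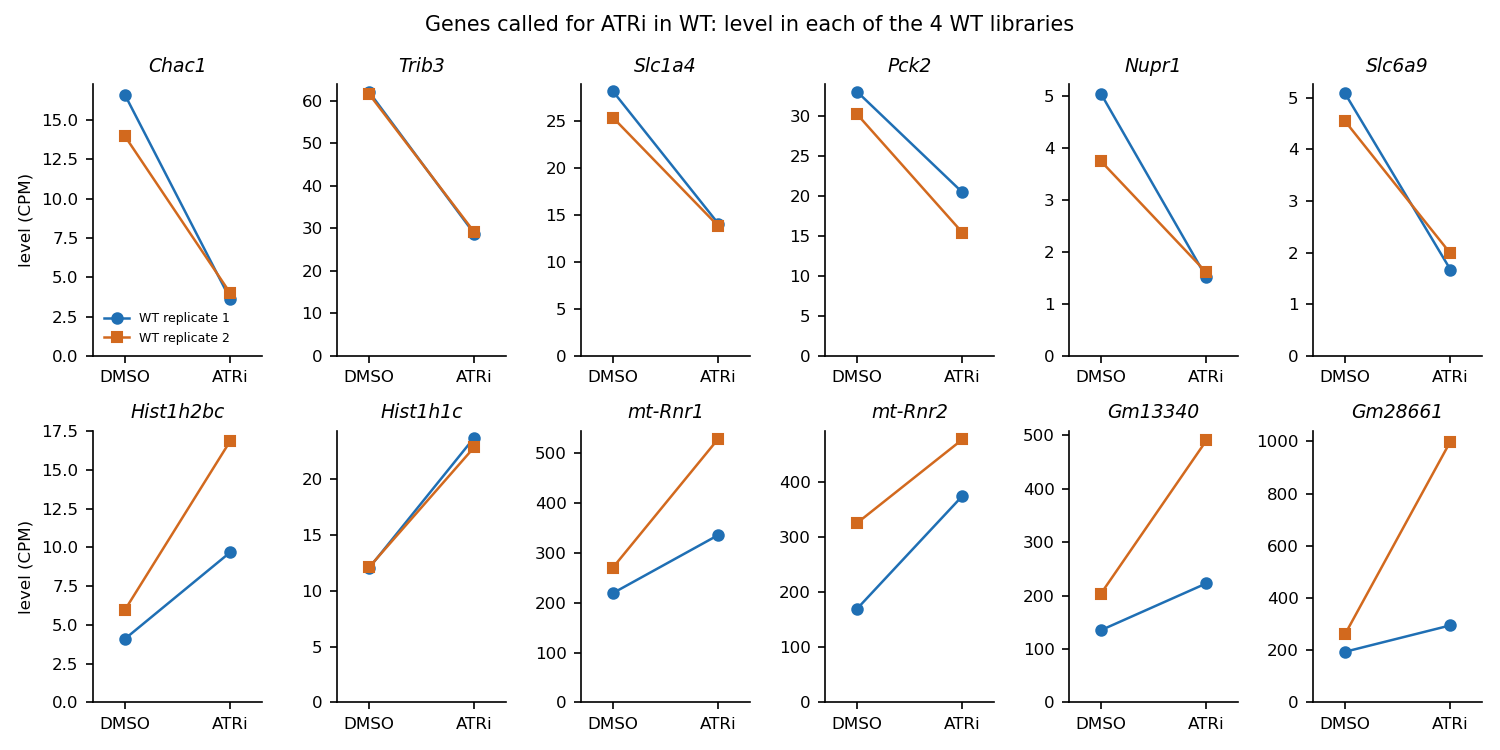
Levels of 12 called genes in CPM (y axis, linear) under DMSO and ATRi, with 1 line for each WT replicate and no error bars, since each point is 1 library. Chac1, Trib3, Slc1a4, Pck2, Nupr1 and Slc6a9 ran downwards in both replicates, whereas the mitochondrial pseudogenes Gm13340 and Gm28661 ran upwards with a steeper line in replicate 2, where Gm28661 reached 999.8 CPM.

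Among the raised genes, 2 encode histones. Hist1h2bc (ENSMUSG00000018102, chromosome 13 from 23684199 to 23692908, plus strand), a core histone H2B gene, rose from 4.09 to 9.69 CPM in replicate 1 and from 5.96 to 16.9 CPM in replicate 2 (log2 fold change 1.37, SE 0.18, adjusted p = 0.00828). Hist1h1c (ENSMUSG00000036181, chromosome 13 from 23738808 to 23740367, plus strand), the linker histone H1.2, rose from 12 to 23.7 CPM in replicate 1 and from 12.1 to 22.8 CPM in replicate 2 (log2 fold change 0.95, SE 0.15, adjusted p = 0.0251). Both treated libraries were above both DMSO libraries for each gene. Canonical histone mRNAs end in a stem-loop in place of a poly(A) tail, and the libraries were selected by poly(A), so these counts reflect only the transcripts that the selection kept. The stem-loop letters GGCNCTTTTNAGNGCC, read on the transcript strand with N any base, were found in the annotated transcript of Hist1h1c and not in that of Hist1h2bc. They were in a transcript of 36 of the 57 replication-dependent histone genes tested and of 47 of all 55450 genes. Of the 67 listed, those 57 were tested, with 2 raised and none lowered, and the median log2 fold change was 0.28 against -0.02 over all genes tested. Levels were low, and the replication-dependent histone genes together took 0.00705% and 0.00881% of counts under DMSO and 0.0103% and 0.0179% under ATRi in WT_1 and WT_2.

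Of the genes on the mitochondrial chromosome, the rRNA genes mt-Rnr1 (12S) and mt-Rnr2 (16S) and the threonine tRNA gene mt-Tt rose. The first, mt-Rnr1 (ENSMUSG00000064337, the mitochondrial chromosome from 70 to 1024, plus strand), rose from 219 to 336 CPM in replicate 1 and from 271 to 529 CPM in replicate 2 (log2 fold change 0.79, SE 0.14, adjusted p = 0.0408), and mt-Rnr2 (ENSMUSG00000064339, the mitochondrial chromosome from 1094 to 2675, plus strand) rose from 169.9 to 375 CPM in replicate 1 and from 326 to 478 CPM in replicate 2 (log2 fold change 0.85, SE 0.15, adjusted p = 0.0477). The tRNA gene mt-Tt, under 5 CPM on average and named after its values were seen, rose from 1.16 to 2.38 CPM in replicate 1 and from 2.51 to 8.66 CPM in replicate 2 (log2 fold change 1.43, SE 0.24, adjusted p = 0.0338). For mt-Rnr1 and mt-Rnr2 both treated libraries lay above both DMSO libraries, by a small margin for mt-Rnr2. WT_1 under DMSO was the low library for mt-Rnr2. For mt-Tt WT_1 under ATRi was just below WT_2 under DMSO. As for the histone genes, these rRNA and tRNA counts reflect only the RNA that the poly(A) selection kept. No mitochondrial mRNA was called. Of these, mt-Co1, a subunit of cytochrome c oxidase, had 3408 (DMSO) and 4700.5 CPM (ATRi) in replicate 1 and 4259 and 10720.0 CPM in replicate 2 (log2 fold change 0.90, adjusted p = 0.104), and mt-Nd1, a subunit of complex I, had 2350.5 (DMSO) and 3043 CPM (ATRi) in replicate 1 and 2725 and 6857 CPM in replicate 2 (0.85, 0.178). In both, WT_2 under ATRi was far above the other 3 libraries.

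Of the 8 raised pseudogenes, 7 match a mitochondrial transcript at 97.6% to 100% identity, so that reads of the mitochondrial mRNAs may be counted on them and their values are uncertain. Gm28661 (ENSMUSG00000102070, chromosome 1 from 24614885 to 24615565, minus strand), the largest of these changes, had 194 (DMSO) and 295 CPM (ATRi) in replicate 1 and 261 and 999.8 CPM in replicate 2 (log2 fold change 1.27, SE 0.22, adjusted p = 0.0398) and matches mt-Co2 at 100% identity. Gm13340 (ENSMUSG00000083563, chromosome 2 from 22588103 to 22589647, minus strand) had 135 (DMSO) and 223 CPM (ATRi) in replicate 1 and 204 and 490.1 CPM in replicate 2 (log2 fold change 0.99, SE 0.15, adjusted p = 0.0251) and matches mt-Co1 at 97.6%. The others were Gm28439 (log2 fold change 1.26), Gm10925 (1.15), Gm29216 (1.14), Gm28437 (0.92) and Gm28438 (0.85), which match mt-Nd4, mt-Atp6, mt-Co1, mt-Co3 and mt-Nd3 and lie with Gm28661 in 1 stretch of chromosome 1. The mitochondrial genes mt-Co2, mt-Atp6, mt-Co3 and mt-Nd3 held only 4.85, 6.12, 4.67 and 0.358 CPM on average, less than their copies on chromosome 1. The eighth, Gm15710 (log2 fold change 0.94), matches the ribosomal protein gene Rpl13 at 99.8%.

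The genes tied most closely to the question of the study were not called. Ccnb1, cyclin B1 of the mitotic kinase, had 229 (DMSO) and 253 CPM (ATRi) in replicate 1 and 217 and 221 CPM in replicate 2 (log2 fold change 0.08, SE 0.13, adjusted p = 0.898). Cdc25a, a phosphatase that activates cyclin-dependent kinases, had a log2 fold change of -0.12 (adjusted p = 0.836), Atr -0.12 (0.851), Chek1 0.03 (0.973), Ccnc -0.02 (0.982) and Cdk8 -0.22 (0.64). Egr1, an immediate early transcription factor, had 29.9 (DMSO) and 32.5 CPM (ATRi) in replicate 1 and 27.0 and 39.9 CPM in replicate 2 (log2 fold change 0.34, adjusted p = 0.518), and in replicate 2 alone it was called (log2 fold change 0.56, adjusted p = 0.00719). A p that misses the threshold with 2 replicates does not show that these transcripts were unaffected.

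The replicates were next taken apart, in 1 fit of all 16 libraries in which each replicate and clone was a block and each gene's residual spread came from the KO clones alone. In replicate 1, 14 of 18479 genes were called, 4 raised (0.0216%) and 10 lowered (0.0541%). In replicate 2, 2561 genes were called, 1319 raised (7.14%) and 1242 lowered (6.72%). The difference between the 2 responses was itself called for 394 genes, of which 237 (1.28%) were higher and 157 (0.85%) lower in replicate 2. A single pair of libraries stands behind each replicate's response, so its test assumes that the pair varies like the clones. On simulated counts the share of false calls exceeded the threshold for replicate 2 and for the difference. The counts moved with the clones that entered. With clone H4 left out, 11 genes were called for replicate 1, 1810 for replicate 2 and 143 for their difference. With D1 left out the counts were 23, 3798 and 1216, and with B9 left out 162 genes were called for the difference.

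Of the 14 calls of replicate 1, 8 are among the 21 of the joint test and 6 are not. They were Chac1, Trib3, Slc1a4, Nupr1, Slc6a9, Hist1h2bc, Hist1h1c and mt-Rnr2, which are shared, and Stc2, Vegfa, Peg3, Rftn2 and the pseudogenes Gm9403 and Gm7252, which are not shared. Vegfa, the vascular growth factor and an ATF4 target, named after its values were seen, had 21.6 (DMSO) and 12.1 CPM (ATRi) in replicate 1 and 20.5 and 16.3 CPM in replicate 2, a log2 response of -0.84 in replicate 1 and -0.33 in replicate 2. Peg3, an imprinted zinc finger gene, named in the same way, had log2 responses of 0.63 and 0.50. Of the 14 genes, 11 were also called in the same direction in the KO clones, where 3.34% of all genes were raised and 5.66% lowered. Both calls used the same residual spread.

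Across the 10379 genes with at least 5 CPM on average, the log2 responses had a standard deviation of 0.16 in replicate 1 and 0.36 in replicate 2. Between the replicates they had a Pearson correlation of 0.25 and a Spearman correlation of 0.22 across genes, and 56.5% of genes had the same sign. Genes are not independent replicates, and the levels share library depth and composition. A change of at least 2-fold was measured for 9 genes (0.0867%) in replicate 1 and 179 genes (1.72%) in replicate 2, and for 3 genes in both. Sequencing the same library again moved a gene's response by a median of 0.05 in replicate 1 and 0.06 in replicate 2 on the log2 scale, and the 2 replicates differed by a median of 0.20.

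The KO clones gave a reference that shares no library with WT cells. There, 1663 genes were called over the 6 clones, 617 raised (3.34%) and 1046 lowered (5.66%), a count that was 499 without clone H4, 508 without B9, 954 without C8 and 221 without the block, and the standard deviation of the responses was 0.13. The Pearson correlation across genes with the KO response was 0.67 for replicate 1 and 0.12 for replicate 2. Of the 611 genes raised in KO clones and tested in both fits, 573 (93.8%) were higher under ATRi in WT replicate 1 and 397 (65.0%) in replicate 2, while 49.4% and 47.3% of all genes were. Their median log2 response was 0.23 in KO clones, 0.18 in replicate 1 and 0.10 in replicate 2. Of the 1043 genes lowered in KO clones, 1010 (96.8%) were lower in replicate 1 and 757 (72.6%) in replicate 2, against 50.6% and 52.7% of all genes, with medians of -0.31, -0.28 and -0.20. Of the 2553 genes called in replicate 2 and tested in both fits, 239 (9.36%) were called in the same direction in KO clones and 62 in the opposite one. Over all genes, 3.34% were raised and 5.66% lowered in KO clones. Each of these shares holds for 1 direction, so their sum is not the background of a call in the same direction. Of the 2553 genes, 1314 were raised in replicate 2, to be set beside the 3.34%. The 1239 lowered ones are to be set beside the 5.66%.

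**Figure D2:**
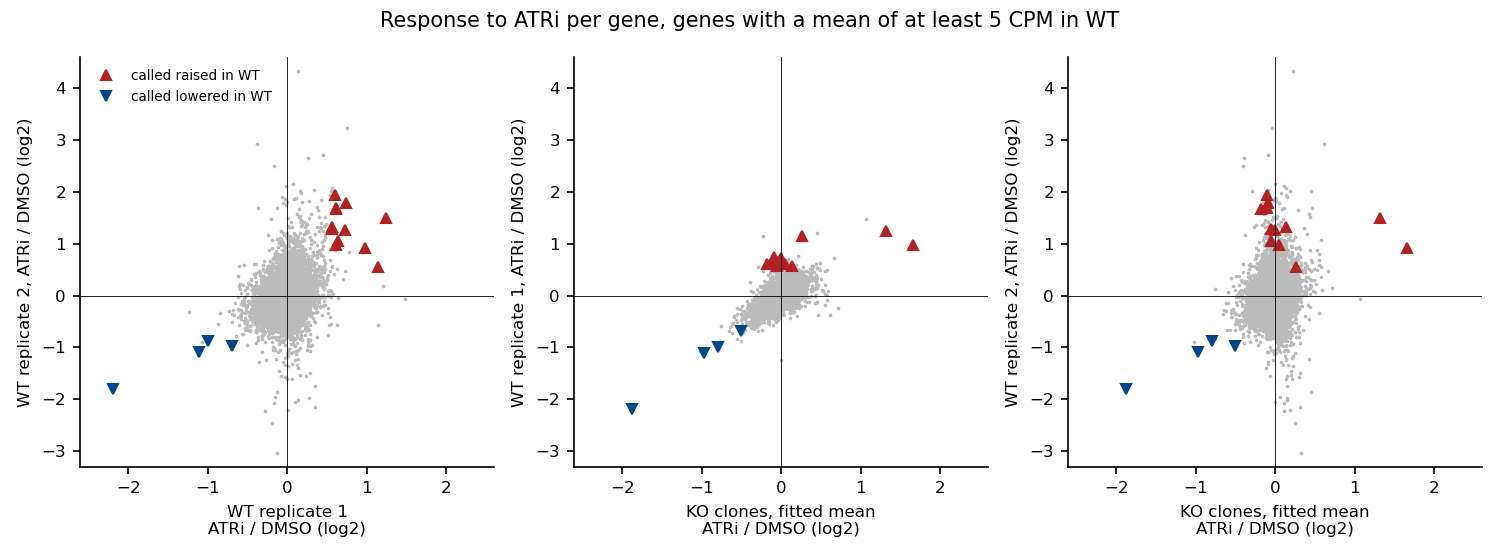
Log2 responses to ATRi of 10379 genes with at least 5 CPM on average, 1 point per gene, in WT replicate 1 against replicate 2 and in the KO clones against each WT replicate, with the genes called in WT cells marked. The cloud of replicate 1 against the KO clones is narrow (Pearson correlation 0.67), and that of replicate 2 is wide (0.12), whereas the 4 lowered genes shown lie far from the centre in every panel.

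The rule named the 8 genes in each direction on which the replicates differed most, and 14 of the 16 are processed pseudogenes, 1 of them, Gm1821, annotated as transcribed. Gm13192, a copy of the ribosomal protein gene Rps28 at 99.5% identity, had 2.14 (DMSO) and 2.35 CPM (ATRi) in replicate 1 and 1.05 and 21.6 CPM in replicate 2, and its replicates differed by 4.22 (adjusted p = 0.0431) on the log2 scale. Gm1821, a copy of the ubiquitin gene Ubb at 97.7% identity, had 19.6 (DMSO) and 21.5 CPM (ATRi) in replicate 1 and 17.6 and 4.33 CPM in replicate 2, a difference of -2.16 (adjusted p = 0.000485). In both genes WT_2 under ATRi stood apart and the other 3 libraries lay together. The same was seen for Gm9358, Gm6366 (a copy of Set), Gm8520 (Rps2), Gm10269 (Rpl35), Gm6767 and Gm6392 (both Eef1a1) and Gm7367 (Ubald2), whose WT_2 ATRi level was the highest of the 4 by a wide margin, with differences from 1.97 to 2.67. It was seen in the other direction for Gm19139 (Hsp90ab1), Gm6640 (Abce1), Gm13315 (Ldha), Cdc34b (Cdc34), Gm24276 (Eef1a1), Gm8268 (Rps18) and Gm12112 (Tcea1), with differences from -2.91 to -2.10. All of these share sequence with another gene, so their counts are uncertain.

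Processed pseudogenes, without those annotated as transcribed, made up 73 of the 237 genes that were higher in replicate 2 (30.8%) and 77 of the 157 that were lower (49.0%), against 14.1% of the genes tested. Of these, 98 had at least 5 CPM and all 98 matched another transcript, 91 at 90% identity or more, with a median of 97.5% over the 98. For 89 of the 91 the matching gene was tested, and these matches were 80 different genes, 18 of them ribosomal protein genes. The difference between replicates had the same sign in pseudogene and match for 61 of the 89. Of the 80 matching genes 10 were called for the difference, beside 1.28% of all genes called higher and 0.85% called lower in replicate 2. The sign was the same as in a pseudogene that matched them for 9 of the 10. The protein-coding genes called for the difference were short as well, with a median transcript length of 861 bases for the 155 higher and 914 bases for the 72 lower in replicate 2, against 1490 bases for the rest, and their median GC content was 56.1% and 45.8%, against 51.3%.

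Ribosomal protein genes showed the spread of replicate 2 most plainly. The log2 responses of the 85 genes had a standard deviation of 0.13 in replicate 1, 0.72 in replicate 2 and 0.11 in the KO clones, and 16 were raised and 19 lowered in replicate 2, beside 7.14% and 6.72% of all genes, while none was called in replicate 1. Named after their values were seen, Rps27 had 172 (DMSO) and 207 CPM (ATRi) in replicate 1 and 175 and 619.6 CPM in replicate 2, and Rpl5 had 187 (DMSO) and 225 CPM (ATRi) in replicate 1 and 155 and 79.6 CPM in replicate 2. Rpsa had 446 (DMSO) and 457 CPM (ATRi) in replicate 1 and 411 and 231 CPM in replicate 2. So WT_2 under ATRi was the highest library for Rps27 and the lowest for Rpl5 and Rpsa. The pseudogenes Rpsa-ps2 and Rpsa-ps10 match Rpsa at 98.8% and 99.3% identity and went the other way in replicate 2. Their log2 responses there were 1.84 and 1.38, against -0.83 for Rpsa. Reads may be shared between these copies, so the counts of Rpsa are uncertain too. WT_2 under ATRi stood apart for other abundant genes too. Gapdh, a glycolytic enzyme often used as a reference, had 265 (DMSO) and 245 CPM (ATRi) in replicate 1 and 268 and 514 CPM in replicate 2, with replicates that differed by 1.06 (adjusted p = 0.0112), and Ube2c, a ubiquitin-conjugating enzyme of mitotic exit, had 265 (DMSO) and 268 CPM (ATRi) in replicate 1 and 272 and 527 CPM in replicate 2. The pseudogene Gm7336 matches Gapdh at 99.8% identity and had a log2 response of 1.75 in replicate 2, so the counts of Gapdh are uncertain. The 3 members of the ribosomal protein list with the highest CPM, Rack1, Rpl4 and Rpl8, had log2 responses from -0.10 to 0.08 in replicate 2. The list median was 0.02 in WT cells.

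Responses also moved with GC content, in opposite directions in the 2 replicates. Over 9663 genes with a known transcript, the bin with the lowest GC content among 5 of like size (33.7% to 45.2%) had a median log2 response of 0.06 in replicate 1 and -0.11 in replicate 2, and the bin with the highest (56.3% to 72.8%) had -0.06 and 0.07. In the KO clones the same bins had 0.00 and -0.01. By transcript length the medians ran from -0.00 in the shortest to 0.02 in the longest bin in replicate 1 and from -0.01 to -0.07 in replicate 2. With the GC trend removed from each library, a setting chosen after seeing the data, the correlation between replicates was 0.32 and no gene was called in WT cells (1479 at an unadjusted p under 0.05). Chac1 kept a log2 fold change of -2.01, with the smallest adjusted p, 0.108, and the prior degrees of freedom that edgeR estimated across genes were 5.80, against 14.5.

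**Figure D3:**
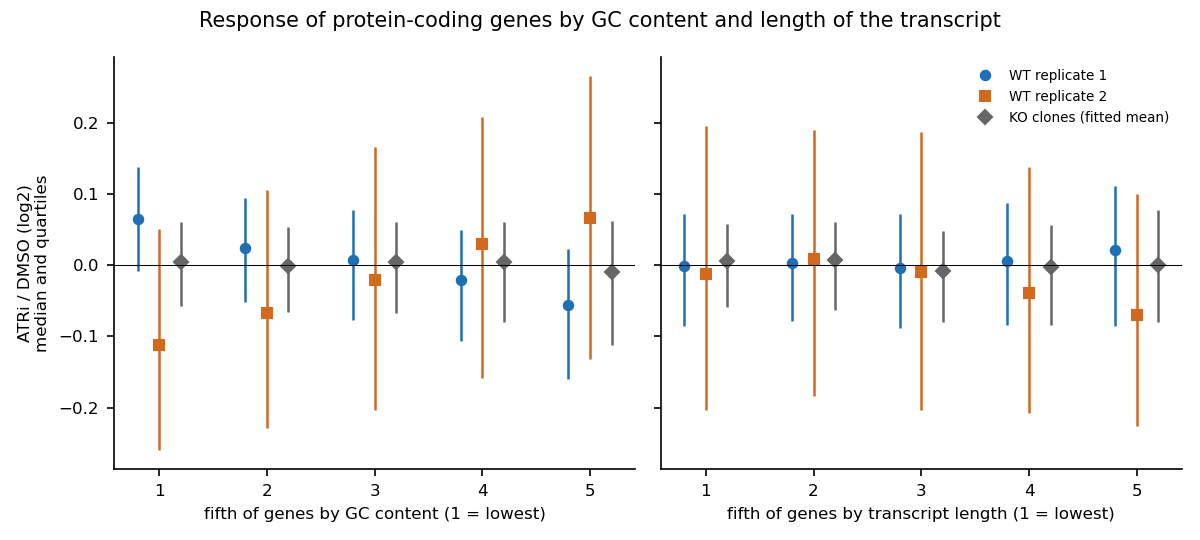
Median log2 response to ATRi, with lines to the quartiles, in 5 bins of genes by GC content and by transcript length (x axes), for WT replicate 1, WT replicate 2 and the KO clones. With GC content the medians fall from 0.06 to -0.06 in replicate 1 and climb from -0.11 to 0.07 in replicate 2, and the quartiles of replicate 2 are the widest.

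The gene lists were then described by their counts and medians, beside the median of -0.02 over all genes tested, of which 26.7% were higher and 30.0% lower in both replicates. The list of ATF4 targets and regulators had the lowest median among the lists with more than 2 members. Of its 43 members tested, 31 (72.1%) were lower in both replicates and 1 was higher in both, with a median of -0.32 (-0.29 in replicate 1, -0.35 in replicate 2 and -0.18 in the KO clones). By the tests, 6 were lowered in WT cells (0.0433%), 7 in replicate 1 (0.0541%), 24 in replicate 2 (6.72%) and 24 in the KO clones (5.66%), with the share of all genes that were lowered in brackets. The list had been added with the lowered genes of an earlier analysis known, so its direction is not independent evidence. Its most abundant members, the alanyl-tRNA synthetase gene Aars (-0.15) and the genes Slc7a5 (-0.18) and Slc3a2 (0.01), whose products form an amino acid exchanger at the cell surface, were not called. Other members are named after their values were seen. Atf4 itself had 334 (DMSO) and 224 CPM (ATRi) in replicate 1 and 297 and 265 CPM in replicate 2 (log2 fold change -0.37, adjusted p = 0.46). Asns, which makes asparagine, had 307 (DMSO) and 306 CPM (ATRi) in replicate 1 and 296 and 300.1 CPM in replicate 2 (0.01, 0.994). Ddit3, which encodes CHOP, had a log2 fold change of -0.77 (adjusted p = 0.303). Eif4ebp1, the translational repressor 4E-BP1, was the 1 member raised in replicate 2, with 285 (DMSO) and 254 CPM (ATRi) in replicate 1 and 287 and 426 CPM in replicate 2, and its replicates differed by 0.74 (adjusted p = 0.0184). Atf3, a stress-induced partner of ATF4, had 1.83 (DMSO) and 1.07 CPM (ATRi) in replicate 1 and 2.07 and 1.13 CPM in replicate 2 (log2 fold change -0.82, adjusted p = 0.378), and it was the 1 member whose response differed from that of the KO clones, where it was -0.04 (WT minus KO -0.78, adjusted p = 0.0431).

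**Figure D4:**
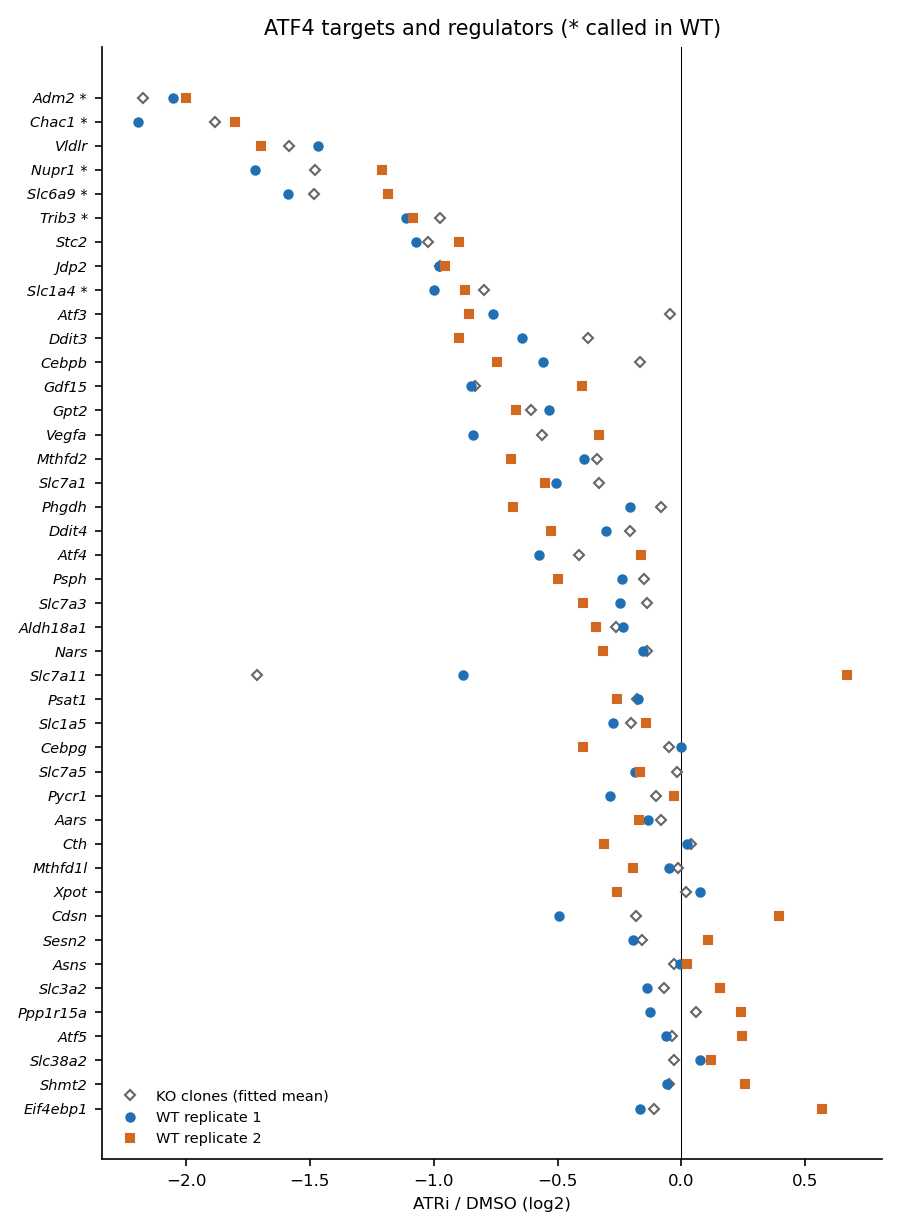
Log2 responses to ATRi of the 43 tested ATF4 targets and regulators in WT replicate 1, WT replicate 2 and the KO clones, 1 row per gene, with 0 marked by a line. Most points lie left of 0 in all 3, Chac1 and Adm2 being farthest out, while Asns and Slc3a2 lie close to 0.

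Related lists with more than 2 genes had medians closer to 0. Of the 20 aminoacyl-tRNA synthetases, which charge tRNAs, 12 were lower and 4 higher in both replicates, with a median of -0.10 and no calls in WT cells. For glycolysis and hypoxia 17 of 32 genes were lower in both and 3 higher, with a median of -0.15, and Pkm, Slc2a3 and Aldoa had -0.13, -0.17 and 0.02. ER chaperones and genes of the unfolded protein response had a median of 0.07 (24 genes, of which 11 were higher and 5 lower in both), sterol synthesis genes 0.01 (25 genes) and heat shock genes 0.08 (18 genes). The 2 cold-inducible RNA-binding genes, Rbm3 and Cirbp, had -0.27 and -0.43. None of these members was called in WT cells.

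For the cell cycle, 53 of 77 G2/M and mitosis genes (68.8%) were higher in both replicates and 5 were lower, with a median of 0.13, 0.14 in replicate 1, 0.10 in replicate 2 and 0.06 in the KO clones. None passed the test in WT cells. In replicate 2, 20 were raised and 2 lowered, beside 7.14% and 6.72% of all genes, and in the KO clones 19 and 2, beside 3.34% and 5.66%. Cdc20, an activator of the anaphase-promoting complex, had 495 (DMSO) and 577 CPM (ATRi) in replicate 1 and 527 and 616 CPM in replicate 2 (log2 fold change 0.22). Top2a, which untangles sister chromatids, had -0.16, and the condensin subunit gene Ncapd2 had 0.02. Mki67, the proliferation antigen, named after its values were seen, had 206 (DMSO) and 299 CPM (ATRi) in replicate 1 and 259 and 360.3 CPM in replicate 2 (0.51, adjusted p = 0.275). G1/S and E2F genes had a median of 0.04, with 23 of 48 higher and 9 lower in both, and the replicative helicase genes Mcm5, Mcm2 and Mcm7 had -0.00, 0.10 and 0.06. In the ATR-CHK1 checkpoint list the median was -0.05, and 6 of 30 genes were higher and 9 lower in both. Of its most abundant members, the histone variant gene H2afx had 0.34, the single-strand binding protein gene Rpa1 -0.07 and the fork protection gene Tipin -0.18. The p53 targets had a median of 0.05, with 12 of 36 higher and 7 lower in both, and Gtse1, Ccng1 and Ckap2 had 0.31, 0.25 and 0.11. No gene of these lists was called in WT cells.

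Immediate early genes, which growth factors induce within minutes, had a median of 0.17, with 17 of 28 higher and 5 lower in both replicates, and 8 were raised in replicate 2, beside 7.14% of all genes. Myc, which drives growth and the cell cycle, had 126 (DMSO) and 154 CPM (ATRi) in replicate 1 and 124 and 234 CPM in replicate 2 (log2 fold change 0.61, adjusted p = 0.26), and Ier2 and Klf2 had 0.20 and -0.13. Id2, an inhibitor of basic helix-loop-helix factors, named after its values were seen, had 12.8 (DMSO) and 19.4 CPM (ATRi) in replicate 1 and 11.8 and 21.7 CPM in replicate 2 (0.74, 0.123). Actin and SRF targets had medians of 0.21 in WT cells, 0.06 in replicate 1 and 0.37 in replicate 2, where 8 of 24 were raised, beside 7.14% of all genes. The cytoskeletal genes Actb, Actg1 and Flna had 0.45, 0.48 and 0.03. FGF-ERK feedback genes had a median of 0.10 (12 genes), with 0.08 for Etv4, -0.06 for Etv5 and 0.12 for Spry4.

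Pluripotency genes had medians near that of all genes. Pou5f1, the core factor OCT4, had 1425 (DMSO) and 1382 CPM (ATRi) in replicate 1 and 1273 and 1246 CPM in replicate 2 (log2 fold change -0.04, adjusted p = 0.961). The medians were 0.01 for the 10 mESC markers, 0.02 for 27 genes of naive pluripotency, 0.08 for 26 primed and lineage regulators and 0.06 for the 4 feeder fibroblast markers tested. In replicate 2 alone, 4 of the 27 naive genes were raised and 2 lowered, beside 7.14% and 6.72% of all genes, and the lowered share was near that of all genes. Only 1 of 25 genes of the 2-cell-like state, Zfp809, was abundant enough to be tested (0.16). The interferon response had a median of 0.01 (25 genes). In that list Ifitm2, an antiviral membrane protein gene with near copies in its family, had 197 (DMSO) and 196 CPM (ATRi) in replicate 1 and 206 and 444 CPM in replicate 2, again with WT_2 under ATRi alone on the high side. Medians of the remaining lists were 0.04 for 13 snoRNA host genes, -0.00 for 9 nuclear long RNAs and -0.02 for the 7 genes of the CDK8 kinase module. Among the long RNAs, Gm26917 had 338 (DMSO) and 941 CPM (ATRi) in replicate 1 and 806 and 774 CPM in replicate 2, so that WT_1 under DMSO was the low library. The list of 15 mitochondrially encoded genes, which leaves out the tRNA genes, had the highest median, 0.79 (0.40 in replicate 1, 1.24 in replicate 2), and 10 were higher in both. In the KO clones their median was -0.06, and 8 of the 15 had a higher response in WT cells than in the KO clones by the test of the difference, beside 1.14% of all genes. Mitochondrial tRNA genes went the other way in replicate 2. Of the 7 tested, 2 were higher in both replicates and 5 were lower in replicate 2, with medians of 0.54 in replicate 1 and -1.06 in replicate 2.

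**Figure D5:**
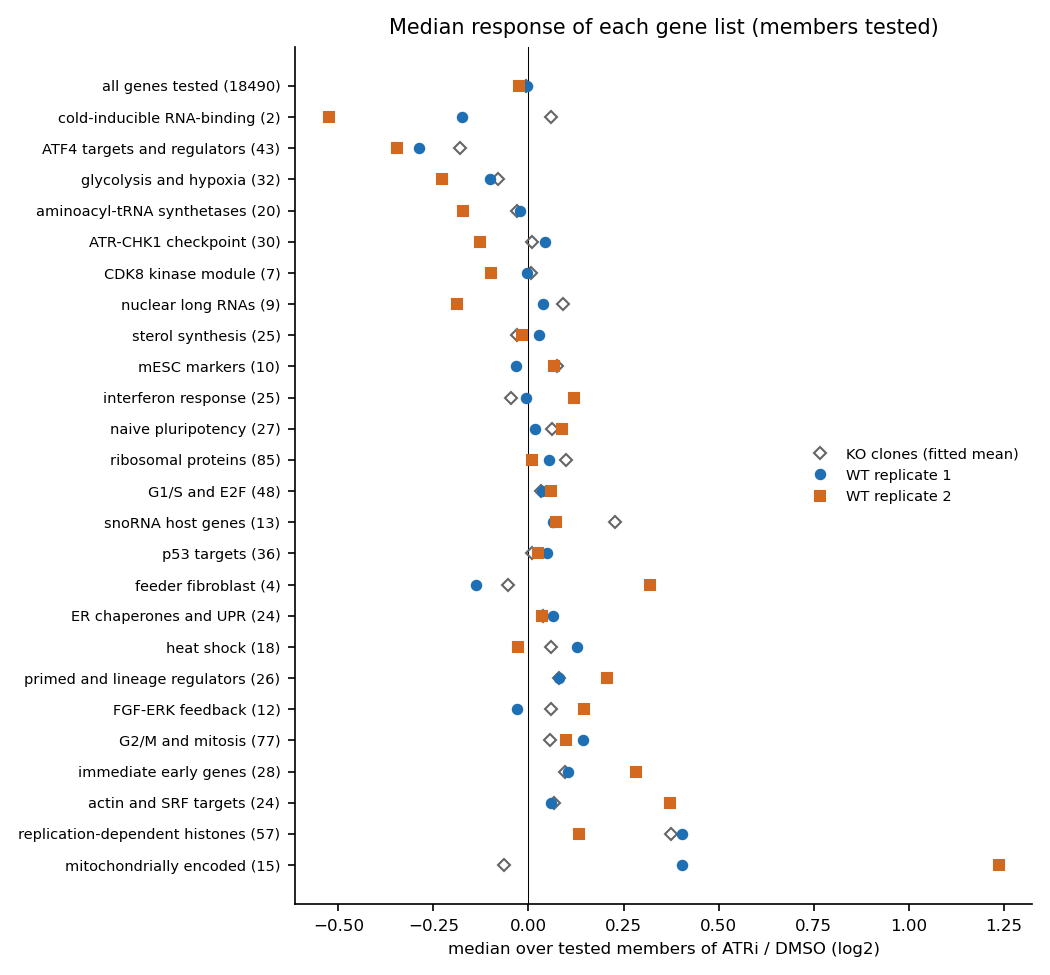
Median log2 response to ATRi of each gene list (rows) in WT replicate 1, WT replicate 2 and the KO clones, with 0 marked by a line and the number of genes tested beside each list. The ATF4 list lies left of 0 in all 3, and the list of mitochondrially encoded genes, which leaves out the tRNA genes, lies at 0.40 and 1.24 in the WT replicates and at -0.06 in the KO clones.

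Set against the KO clones, 10 of the 21 genes called in WT cells were called in the same direction there, 7 of the 8 lowered and 3 of the 13 raised, beside 5.66% of all genes lowered and 3.34% raised in the KO clones. Among the lowered genes the KO log2 fold changes were -1.88 for Chac1, -0.97 for Trib3, -0.80 for Slc1a4, -0.51 for Pck2, -1.48 for Nupr1, -1.48 for Slc6a9 and -2.17 for Adm2. For Gm7384 the KO value was -0.09, and it was the 1 lowered gene whose response differed from that of the KO clones by the test of the difference (WT minus KO -1.63, adjusted p = 0.00375). Hist1h2bc had 1.31 and mt-Rnr2 0.26. For Hist1h1c the KO response was 1.66, larger than in WT cells by the test of the difference (WT minus KO -0.71, adjusted p = 0.0122). The rRNA gene mt-Rnr1 had 0.05 in the KO clones, and its difference was 0.74 (adjusted p = 0.0133). Over all genes, the WT response differed from the KO response for 323, of which 210 (1.14%) were higher and 113 (0.612%) lower in WT cells, and 182 of the 323 were also called for the difference between the WT replicates. This test took its spread from the KO clones alone, so disagreement between the WT replicates did not enter its error. With replicate 1 alone no gene was called, and 386 had an unadjusted p under 0.05. With replicate 2 alone 2017 were called. Clones mattered to the 323 as well, with 95 genes without H4, 105 without B9, 183 without C8, 583 without D1 and 714 without H5. What sets WT_2 under ATRi apart was not tested.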

How the data were processed

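The authors trimmed single-end reads with Trimmomatic 0.38, aligned them to GRCm38.p6 with HISAT2 2.1.0 and counted them per gene and strand with featureCounts 2.0.1, set to ignore reads marked as duplicates. They deposited raw counts for each lane, which were used here, and log2 values from the rlog transformation of DESeq2, which were not, since rlog shrinks genes with few counts. Reads shared between near-identical genes may be lost or misplaced at these steps.

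All lanes of both runs were summed per library. Counts were tested with edgeR 4.0.16 in R 4.3.3 (limma 3.58.1) by the quasi-likelihood test with TMM scaling and the default expression filter, with Benjamini-Hochberg adjustment over all genes tested and a threshold of 0.05. The response in WT cells was fitted on the 4 WT libraries with replicate as a block, and the response of each replicate, the KO response and their differences on all 16 libraries. The labels pair each ATRi sample with the DMSO sample of its replicate, and the deviations of the paired libraries had a correlation of 0.45 over 10379 genes. An exact permutation test of 2 against 2 libraries cannot go below p = 0.333. Log2 responses within a replicate used a prior count of 2. For the joint WT response the p-values rest mostly on the spread between the 2 replicates as shared across genes (14.5 prior degrees of freedom). A gene's own spread between the replicates enters with 1 degree of freedom. Gm28661, for example, was called with log2 responses of 0.61 and 1.94 and an SE of 0.22. For the response of each replicate, the KO response and their differences, the p-values measure the spread among the KO clones. The WT libraries add nothing to that spread. No depth-based interval was needed at 70416781 counts or more per WT library. DESeq2 1.42.0 and the other settings were alternatives. The tests were run on simulated data. There the share of false calls stayed under the threshold for the joint WT response. It exceeded the threshold for the response of replicate 2 and for the difference between replicates. Apart from the planted changes, the simulated libraries shared 1 mean per gene, with no replicate effect and no GC trend. These shares may therefore not hold for the real counts.

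Pseudogenes were matched to other transcripts of GRCm38 with blastn 2.17.0, and promoter sequences came from RefSeq. Genes were named by rule: 7 genes tied to the question, the 12 largest called changes in each direction with at least 5 CPM (filled by smallest unadjusted p), the 8 largest replicate differences in each direction and the 3 most abundant members of each list. The members and lists were chosen with earlier results of these data known.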

Additional observations from a re-analysis of the deposited data

Results flagged for a closer look

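The response of WT cells differed from that of the KO clones for 323 genes by the test of the difference between the 2 responses, and for 2017 genes when WT replicate 2 was taken alone. The spread in this test came from the KO clones alone, and disagreement between the WT replicates did not enter its error. The log2 differences, WT response minus KO response, of the named genes among the 323 follow.

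Below 0 were Hist1h1c (-0.71), Cirbp (-0.54), Neat1 (-0.50), Rpsa (-0.47) and Gas5 (-0.34), which are not pseudogenes, and the copies or short genes Gm19139 (-1.91), Gm7384 (-1.63), Gm13315 (-1.59), Gm24276 (-1.29), Gm6640 (-1.23), Gm1821 (-1.09), Cdc34b (-1.01), Gm8268 (-0.98) and Gm12112 (-0.85). Hist1h1c was thus raised less in WT cells than in the KO clones.

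Above 0 were the mitochondrial genes mt-Rnr2 (0.59), mt-Rnr1 (0.74), mt-Nd1 (0.89), mt-Cytb (0.89), mt-Co1 (0.96) and mt-Tt (1.57) and the pseudogenes that match them, Gm28438 (0.90), Gm28437 (0.98), Gm13340 (1.00), Gm10925 (1.25), Gm29216 (1.32), Gm28439 (1.35) and Gm28661 (1.38). Other pseudogenes above 0 were Gm15710 (0.81), Gm6767 (0.94), Gm6392 (1.11), Gm9358 (1.57), Gm10269 (1.67), Gm8520 (1.86) and Gm6366 (2.05). The remaining genes above 0 were Ifitm3 (0.37), Gapdh (0.52), Ube2c (0.60), Ost4 (0.62), Ifitm2 (0.67), Hist1h2ap (0.74) and Rps27 (1.04). The mitochondrial share of counts was 3.27% in WT_2 under ATRi and 2.16% at most in the KO libraries, and its part in these differences was not tested. With WT replicate 1 alone no gene differed at an adjusted p under 0.05 in edgeR's quasi-likelihood test, and 386 genes had an unadjusted p under 0.05.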

How the results depend on the processing

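All of the 21 genes called in WT cells kept their direction in every setting. Their number was 10 with RLE size factors (4 raised, 6 lowered), 40 with library totals alone (28 raised, 12 lowered), 266 with every gene of at least 1 count, 64 with the Cdk8 multiplex lanes and 20 with the Ccnc multiplex lanes, 26 with DESeq2, 2 without WT_2 under ATRi, 0 without the replicate block, 0 with the GC trend removed (added after seeing the data) and 69 in 1 fit of all libraries with the block. Leaving out a replicate gave 14 to 2500. Library totals moved the median of all genes from -0.02 to -0.07. Replicate 1 had 98 calls with every gene of at least 1 count, 22 with DESeq2 and 11 to 23 with a clone left out. The replicate difference had 1043 with every gene of at least 1 count and 143 to 1216 with a clone left out, the KO response 221 without the block and 499 to 1928 with a clone left out. The WT minus KO difference had 1054 with every gene of at least 1 count, 503 with the GC trend removed and 0 to 2027 with a replicate or clone left out. The causes were not tested.

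List medians moved with library totals for G2/M (0.072), G1/S (-0.020), p53 targets (-0.0039), ATF4 targets (-0.38), ER chaperones (0.014), sterol synthesis (-0.047), naive pluripotency (-0.034), ribosomal proteins (-0.032) and snoRNA hosts (-0.018). They also moved for G1/S with the Cdk8 multiplex lanes (0.015) and the GC trend removed (0.052), for the interferon list with every gene of at least 1 count (0.11) and for snoRNA hosts with RLE (0.045), the Ccnc lanes (0.045), the Cdk8 lanes (-0.024) and every gene of at least 1 count (0.027). With a replicate left out the medians ran from 0.036 to 0.073 for G1/S, 0.10 to 0.30 for immediate early genes, -0.030 to 0.16 for FGF-ERK feedback, 0.016 to 0.10 for naive pluripotency, 0.080 to 0.22 for primed regulators, -0.0066 to 0.13 for the interferon list, 0.065 to 0.086 for snoRNA hosts and -0.17 to 0.040 for nuclear long RNAs. Signs turned, for genes not called in any of these, for Ccnc with the Cdk8 lanes (0.0042), without WT_2 under ATRi (0.091) and between replicates left out (-0.091 to 0.067), for Atr between replicates (-0.35 to 0.12), and for Chek1 with library totals (-0.029), the Cdk8 lanes (-0.012) and between replicates (-0.039 to 0.10).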
